A study of Drosophila melanogaster with 2 samples.

Results

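The genes examined here encode the machinery of pre-mRNA splicing in Drosophila melanogaster, and the measurement was where the forkhead-family factor Crg-1 was recovered on chromatin near their starts. They were chosen by symbol among the protein-coding genes of the Ensembl annotation on the 6 chromosome arms: the Sm proteins, symbols beginning with LSm, Prp followed by a digit, Sf3a, Sf3b, U2af or snRNP-, and snf, SF1, SF2, SC35, B52, x16, tra2 and Rsf1. The rule found 41 of 13945 genes. No gene carried the symbol SmG. The gene that RefSeq lists with that synonym, SNRPG, lay outside the rule.

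Chromatin came from whole adult flies, males and females pooled and of unknown age, of a line that stably expresses Crg-1 with GFP fused at its C terminus. It was precipitated with an antibody to GFP. The design held 1 group of 2 biological replicates, numbered 2 and 3 in the labels, with no untagged flies analysed here. The sources used here do not give the promoter that drives the transgene. Chromatin of the whole animal was pooled, so a site occupied in few cells and a site occupied weakly in many cannot be told apart.

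Splicing is carried out by the spliceosome, which assembles on each intron from small nuclear ribonucleoproteins (snRNPs). Each of these is a small nuclear RNA with a ring of Sm or LSm proteins and a set of particle-specific proteins. The U1 particle recognises the 5′ splice site, and SF1, the U2AF proteins and the U2 particle with its Sf3a and Sf3b proteins recognise the branch site and the 3′ splice site. Prp proteins, named from yeast mutants, include the helicases and scaffold proteins of the later steps. SR proteins bind exons and recruit the other factors. Most of these genes are active in nearly every cell, and Crg-1, first described as a circadianly regulated gene, is a forkhead transcription factor.

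The deposited lists hold regions with a summit and the authors' signal value, which ranks regions within a list but is on a different scale in each. Each replicate list and the list from both replicates pooled held 30000 regions, from strong sites down to background. The thresholded list, the 3707 regions that passed the authors' test of reproducibility, was the top 3707 of the pooled list by signal, which ran from 109.7 to 1889.4. A region is assigned here to every gene with a start site within 500 bp of its summit. The lists give no read totals, so depth is unknown.

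Splicing genes carried regions at nearly all promoters, but mostly of middling rank. In the thresholded list 13 of 41 genes had a promoter region, or 31.7% (95% Wilson interval 19.6 to 47.0, counting error over genes only), against 22.9% of all protein-coding genes. A share this near the background is not a result about these genes. In the pooled list at any rank the share was 38 of 41, or 92.7% (80.6 to 97.5), against 57.6% of all protein-coding genes. The genes without any pooled-list region were SmE, LSm-4 and Sf3b5.

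The distribution of ranks departed most from that of other genes below the threshold, not at the top. The best region ranked between 1 and 1000 for 3 splicing genes, or 7.32%, against 7.90% of all protein-coding genes. Ranks 1001 to 3707 held 24.4% of splicing genes and 15.0% of all genes. The ranks from 3708 to 10000, just under the threshold, held 17 of the 41, or 41.5%, against 17.1% of all genes. Among genes with a pooled-list region, the median best rank was 4450 for the 38 splicing genes and 5225 for all 8030. The replicates differed in this direction. The medians were 4837 and 5409 in replicate 2, and in replicate 3 the splicing genes ranked lower, with 6000 against 5225.

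**Figure D1:**
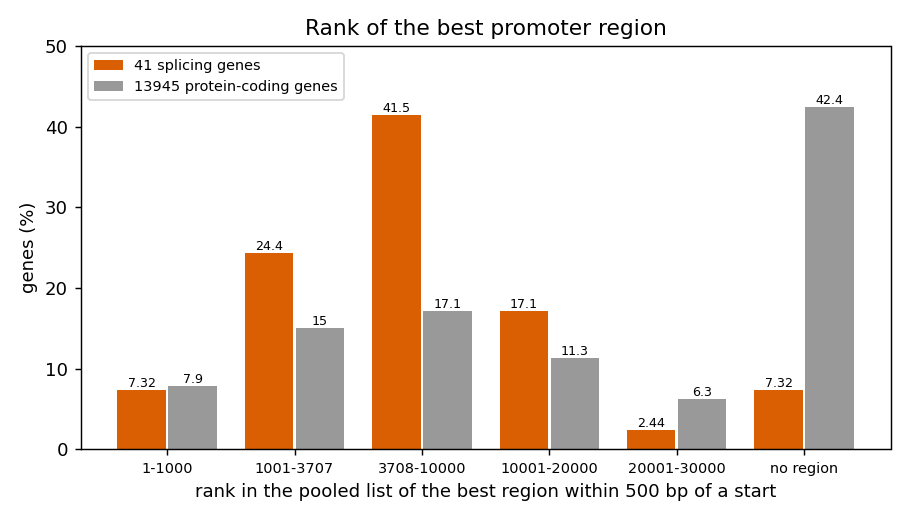
Share of genes (%, bars from 0) by the rank, in the pooled list, of the best region with a summit within 500 bp of a start, for the 41 splicing genes (orange) and all 13945 protein-coding genes (grey). The classes differ most at ranks 3708 to 10000, with 41.5% against 17.1%, and where no region was found, with 7.32% against 42.4%.

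Both replicates gave the same count, with 10 genes in common. Of the 3707 top-ranked regions of replicate 2, a summit lay at 14 splicing genes, or 34.1%, against 22.6% of all protein-coding genes. In replicate 3 it was also 14 genes, against 22.4%. The shared genes were all in the thresholded list: B52, LSm1, LSm3, SC35, SF2, Sf3b1, Sf3b6, SmB, U2af50 and snf. A further 8 genes were top-ranked in 1 replicate. Of them, SF1, Sf3a1 and U2af38 passed the threshold and Prp18, Prp19, Prp31, Sf3b3 and snRNP-U1-C did not. For the 34 splicing genes found in both replicate lists, the ranks correlated with a Spearman's rho of 0.79, and for all 6938 such genes with 0.84. This describes genes, which are not replicates, and both replicate lists were made against the same control alignment. The summits of the 2 replicates lay a median of 42.5 bp apart at the splicing genes and 48 bp apart at all genes.

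**Figure D2:**
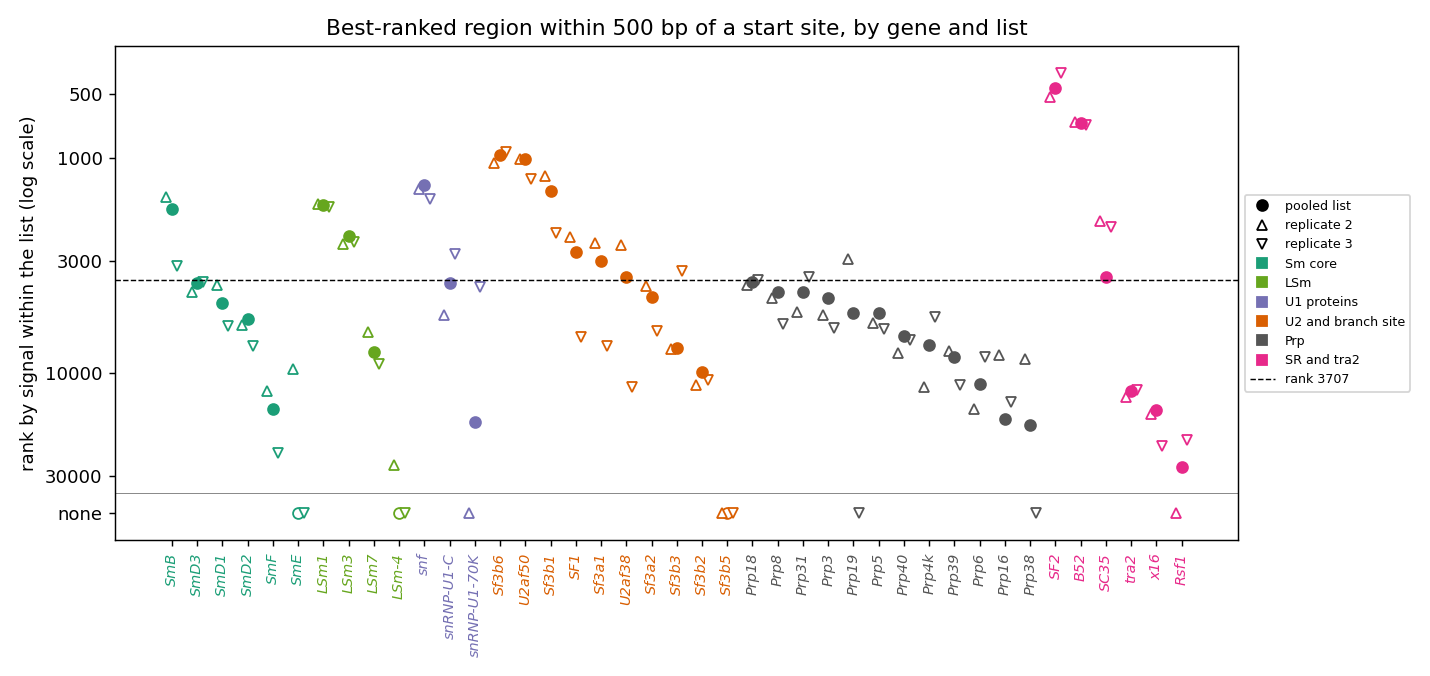
Rank by signal (log scale, best at the top) of the best region within 500 bp of a start, for each of the 41 genes, coloured by role, in the pooled list (circles), replicate 2 (upward triangles) and replicate 3 (downward triangles). The dashed line is rank 3707, and symbols at "none" mark genes with no region in that list. SF2 and B52 rank best, and all 12 Prp genes lie below the line in the pooled list.

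Among the SR proteins, the family held both the highest and the lowest pooled-list signal of the 38 splicing genes with a region. SF2, the fly counterpart of human SRSF1, had the strongest region, at 3R:16341886-16342325, with a signal of 319.7 in the pooled list. It ranked 473 there, 521 in replicate 2 and 402 in replicate 3. A further thresholded region, with a signal of 124.8, overlapped it and had its summit at -317 bp from the SF2 start. The neighbouring gene pad, on the opposite strand, starts 330 bp upstream of SF2, so this further summit lay nearer to pad. B52, an SR protein first found on polytene chromosomes, followed with a signal of 270.4 at 3R:13661146-13661585. Its ranks were 682 in the pooled list, 681 in replicate 2 and 701 in replicate 3. SC35, another SR protein, had a signal of 111.9 and ranked 3558 in the pooled list, just inside the threshold. It ranked higher in each replicate alone, at 1962 and 2082. The gene has 2 annotated starts, and the pooled-list summit lay 62 bp upstream of one while the replicate 3 summit lay 234 bp downstream of the other.

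The other SR-family genes held weak candidates only. The regions of tra2, a regulator of sex-specific splicing, ranked 12074 in the pooled list, 12874 in replicate 2 and 12028 in replicate 3. That of x16 ranked 14927, 15485 and 21916 in the same lists. Rsf1 was lowest, with a pooled rank of 27312, a rank of 20484 in replicate 3 and no region in replicate 2. Of the 6 SR-family genes 3 were above the threshold, beside 22.9% of all protein-coding genes. The lowest of these 3 ranked 3558 and the best of the others 12074. With 6 genes and no test, this is a description.

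Of the 10 genes for proteins of the U2 particle and the branch site, 6 were among the 13 with a thresholded region. The share over all protein-coding genes was 22.9%, and no role was tested against it. All 6 summits lay nearer to the start of a neighbouring gene. None of the 6 genes kept a region when each summit counted only for the gene with the nearest start. Sf3b6, which contacts the branch site in the human U2 particle, had a signal of 228.2 at 3L:6193151-6193590 and ranked 961 in the pooled list, 1049 in replicate 2 and 935 in replicate 3. U2af50, the large U2AF subunit that binds the polypyrimidine tract, had a signal of 223.2 at X:16358914-16359353. Its ranks were 1009, 1007 and 1254. Sf3b1, the large scaffold of the Sf3b complex, had a signal of 187.5 at 2L:567953-568392 and ranked 1424, 1213 and 2231. These 3 genes were top-ranked in both replicates.

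SF1, Sf3a1 and U2af38 were top-ranked in replicate 2 only. SF1, the branch-point binding protein, had a signal of 130.5 and ranked 2742 in the pooled list, 2316 in replicate 2 and 6821 in replicate 3. Sf3a1 had a signal of 123.9 and ranked 3016, 2482 and 7487. U2af38, the small U2AF subunit that reads the 3′ splice site, had a signal of 111.6 and ranked 3579, 2528 and 11639. In replicate 3 all 3 fell outside the top 3707. Their summits were also the farthest from the member start of all thresholded regions here, 403, 334 and 422 bp upstream. The summits of Sf3b6, U2af50 and Sf3b1 also lay nearer to a neighbouring start. Why SF1, Sf3a1 and U2af38 differed between replicates was not tested. Of the remaining genes of this role, Sf3a2 ranked 4424 and Sf3b2 9914 in the pooled list. Sf3b3 ranked 7632 there and 3358 in replicate 3.

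The ring proteins and the U1 proteins held 4 thresholded regions, at 1 of 6 Sm, 2 of 4 LSm and 1 of 3 U1 genes. The share over all protein-coding genes was 22.9%. SmB was the only one of 6 Sm genes above the threshold, with a signal of 167.7 at 2L:10426493-10426932 and ranks of 1729, 1511 and 3163 in the pooled list, replicate 2 and replicate 3. SmD3 lay just below, at a pooled rank of 3827, followed by SmD1 at 4702, SmD2 at 5575 and SmF at 14695. SmE had a region in replicate 2 alone, at rank 9579. SNRPG, the Sm protein outside the rule, had a thresholded region of signal 145.9 and ranks of 2236, 2400 and 2121. The promoters of the Sm genes thus ranged from above the threshold to no pooled region.

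Of the 4 LSm genes, LSm1, part of the cytoplasmic ring that acts in mRNA decay, had a signal of 172.5 and ranks of 1650, 1627 and 1688. LSm3, which is shared by the nuclear ring on U6 RNA and the cytoplasmic ring, had a signal of 143.1 and ranks of 2311, 2501 and 2456. The replicates placed both genes within a narrow span of ranks. LSm7 ranked 8021 in the pooled list, and LSm-4 appeared at rank 26853 in replicate 2 alone. Among the U1 proteins, snf, the fly protein that serves in both the U1 and the U2 particle, had a signal of 193.2 at X:5308999-5309438 and ranks of 1339, 1394 and 1556. The region of snRNP-U1-C ranked 3813 in the pooled list, 5390 in replicate 2 and 2788 in replicate 3. That of snRNP-U1-70K ranked 16947 in the pooled list and 3979 in replicate 3, and replicate 2 had none.

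None of the 12 Prp genes had a thresholded region, beside 22.9% of all protein-coding genes. All 12 had a pooled-list region, beside 57.6% of all protein-coding genes. The pooled ranks of the Prp genes ran from 3780 to 17536, with a median of 5982. Prp18, a factor of the second catalytic step, came nearest to the threshold, with a signal of 108.3 against the lowest thresholded signal of 109.7. It ranked 3780 in the pooled list, 3871 in replicate 2 and 3684 in replicate 3. The pooled-list summit lay 219 bp upstream of Prp18 but 13 bp from another protein-coding start. Those of Prp3, Prp5, Prp6, Prp31 and Prp40 also lay nearer to the start of a neighbouring gene. Prp8, the scaffold at the heart of the spliceosome, ranked 4179, 4483 and 5942. Its summit lay 182 bp downstream of the start in all 3 lists. Prp31, a protein of the U4/U6.U5 tri-snRNP, ranked 4200, 5191 and 3577. Prp3 ranked 4475, 5348 and 6181. Prp19, the ubiquitin ligase of the complex that activates the spliceosome, ranked 5261 in the pooled list. It ranked 2946 in replicate 2 and had no region within 500 bp in replicate 3. The helicase genes Prp5 and Prp16 ranked 5265 and 16399 in the pooled list. The others, Prp40, Prp4k, Prp39, Prp6 and Prp38, lay between 6699 and 17536. With 12 genes and no test of the roles against each other, the absence of a thresholded Prp region is a description.

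Summits lay mostly upstream of the gene. Of the 13 thresholded members, 12 had the best summit upstream, or 92.3%, against 83.4% over all 3195 genes with a thresholded promoter region, and the exception was B52, 55 bp downstream. The median position was 118 bp upstream for the splicing genes and 98 bp upstream for all genes. In the pooled list 29 of 38 splicing genes, or 76.3%, had the summit upstream, against 70.0% of all 8030 genes. Only 2 of the 13 genes, LSm3 and snf, had the best summit within 50 bp of the start, or 15.4%, against 23.6% of all genes. No further gene gained a thresholded summit when the distance was widened to 1000 bp. The nearest thresholded summits outside that were 1153 bp from Sf3b5, 1210 bp from x16 and 1301 bp from Sf3b2.

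**Figure D3:**
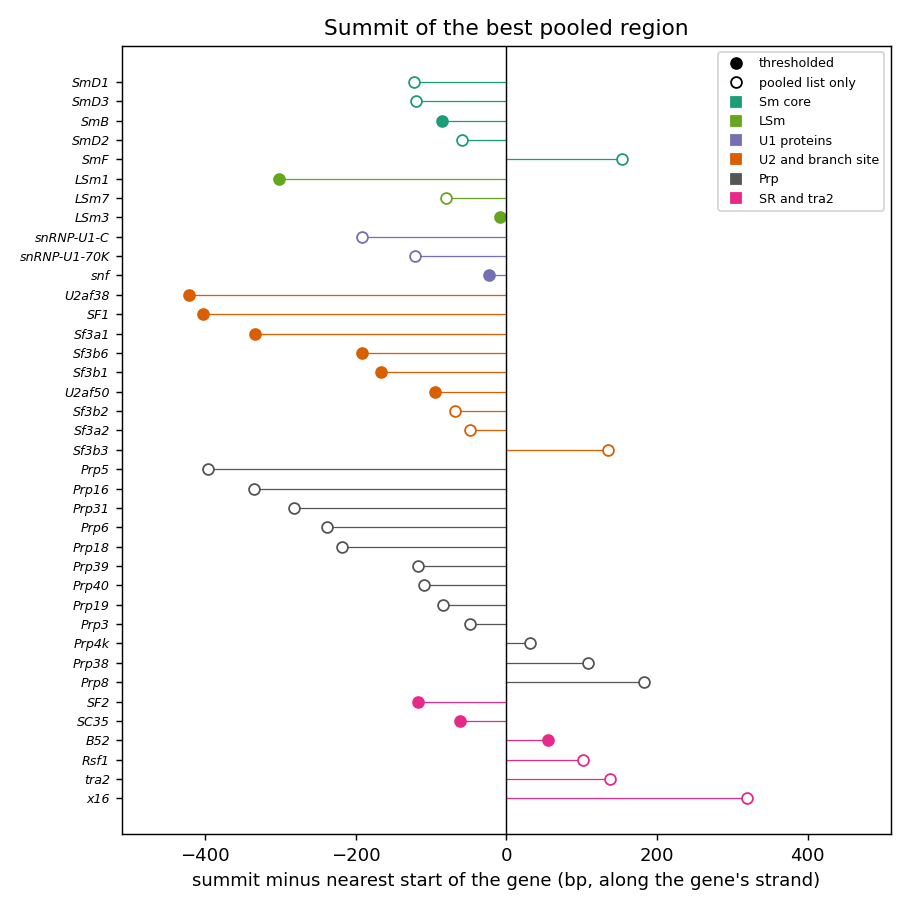
Distance in bp, along the gene's strand, from the nearest start of each gene (vertical line at 0) to the summit of its best pooled-list region, for the 38 genes with a region. Filled circles are thresholded, open circles are not, and colours give the role. Of these summits, 29 lie upstream, those of U2af38, SF1 and Sf3a1 by 422, 403 and 334 bp.

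Many of the splicing genes share a promoter with another gene, and whether this bears on the upstream position was not tested. A gene is called divergent here when another protein-coding gene on the opposite strand has a start up to 500 bp upstream. This held for 27 of the 41 splicing genes, or 65.9%, and for 27.4% of all protein-coding genes, a property of the annotation and not of the chromatin data. For 11 of the 13 thresholded genes, the best region also lay within 500 bp of another protein-coding start. For 7 of these, the summit was nearer to that other start. The U2af50 summit lay 9 bp from a start of PIG-Q, a gene of GPI anchor synthesis, and 95 bp from U2af50. The U2af38 summit lay 19 bp from Stip1, which encodes a co-chaperone, and the LSm1 summit 27 bp from Xpd, which encodes a helicase of the factor TFIIH. The Sf3b1 summit lay 52 bp from Nle and the SF1 summit 55 bp from the start of its neighbour. That of Sf3b6 lay 109 bp from Tnpo, a nuclear import receptor gene, and that of Sf3a1 186 bp from Irc, a catalase gene. For snf the partner was Cdk7, a kinase of the same TFIIH factor, 236 bp from the summit. For SmB it was KdelR at 174 bp, for SF2 it was pad at 212 bp, and for SC35 it was eRF3, the translation termination gene, at 352 bp. B52 and LSm3 were the thresholded genes with no other protein-coding start in reach.

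The share of splicing genes above the threshold, set beside that of other genes, depended on how shared promoters were treated. When each summit counted only for the gene with the nearest start, 6 of 41 splicing genes kept a region, or 14.6%, and 17.0% of all protein-coding genes did, so the difference between them went from 8.8 to -2.3 percentage points. The 6 genes were B52, LSm3, SC35, SF2, SmB and snf. Among divergent genes, 10 of 27 splicing genes had a thresholded region, or 37%, against 47.5% of all 3815 divergent genes. Among the others it was 3 of 14, or 21.4%, against 13.6% of 10130. This division was made after the data were seen. The share with a region of any rank in the pooled list was 88.9% of divergent splicing genes and 84.9% of all divergent genes. All 14 splicing genes without a divergent partner had a pooled-list region, or 100%, against 47.3% of all such genes. Whether a region at a divergent promoter belongs to either gene was not tested.

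**Figure D4:**
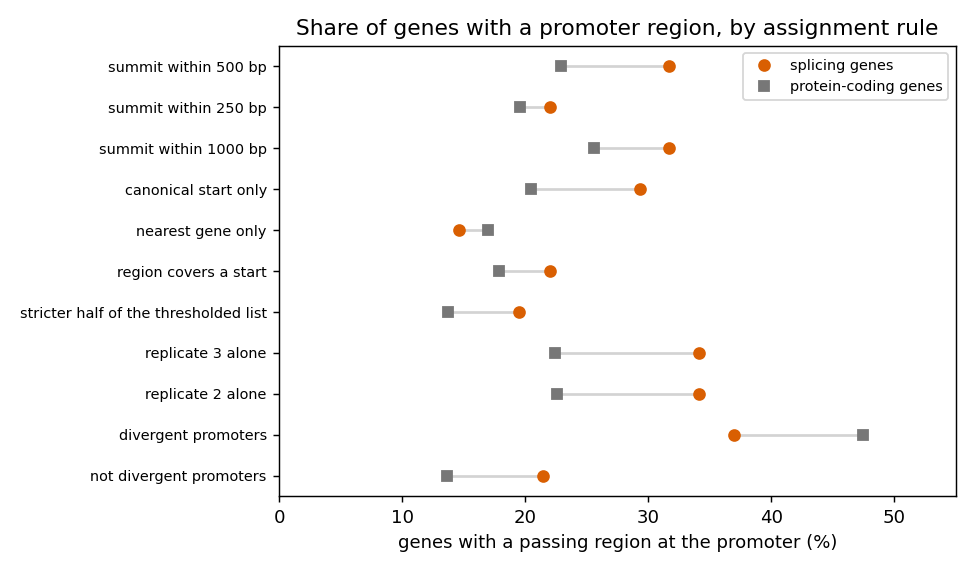
Share of genes (%) with a passing promoter region under each assignment rule, for the 41 splicing genes (orange circles) and all protein-coding genes (grey squares). The last 2 lines divide both sets by whether the promoter is divergent. The splicing genes are lower when a summit counts only for the nearest gene (14.6% against 17.0%) and among divergent promoters (37% against 47.5%), and higher on the other lines.

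The DNA under the summits is shown for 7 genes, as a summit-centred stretch of Release 6 reference sequence (dm6), 5′ to 3′ on the strand of the gene and cut where an annotated untranslated region begins. The genes were picked to show summits with and without the letters searched. Capitals mark the letters ATCGAT, the core of the DNA replication-related element (DRE) of housekeeping promoters in flies, its full form TATCGATA, or GTAAACA, a core of forkhead sites.
SF2, chr3R:16342061-16342151, minus strand: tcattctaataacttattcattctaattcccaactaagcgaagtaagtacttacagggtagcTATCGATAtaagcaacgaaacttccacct
snf, chrX:5309174-5309241, plus strand: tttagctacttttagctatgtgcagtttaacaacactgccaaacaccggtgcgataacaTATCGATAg
Sf3b1, chr2L:568128-568218, plus strand: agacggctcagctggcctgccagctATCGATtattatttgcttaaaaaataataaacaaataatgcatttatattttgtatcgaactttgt
Sf3a2, chr3L:12814022-12814112, minus strand: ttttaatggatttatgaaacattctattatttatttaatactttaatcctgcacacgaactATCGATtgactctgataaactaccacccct
Sf3a1, chr3R:17002644-17002734, minus strand: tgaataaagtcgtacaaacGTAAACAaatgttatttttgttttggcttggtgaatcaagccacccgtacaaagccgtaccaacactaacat
Sf3b6, chr3L:6193326-6193416, minus strand: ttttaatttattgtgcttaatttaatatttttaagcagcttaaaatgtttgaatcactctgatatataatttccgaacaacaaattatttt
U2af50, chrX:16359089-16359142, minus strand: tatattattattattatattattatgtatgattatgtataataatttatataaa

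SF2 and snf held the full TATCGATA, and Sf3b1 and Sf3a2 the core alone, the last at a region below the threshold. Sf3a1 held GTAAACA, and the summits of Sf3b6 and U2af50 held none of the letters searched and were rich in A and T. In the 101 bp centred on the summit, the G and C content was 20.8% at Sf3b6, 16.8% at U2af50 and 21.8% at SmB. The median was 33.7% over the 13 thresholded members and 38.6% over the 2542 thresholded regions at protein-coding starts.

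Over these 101 bp windows, searched on both strands, ATCGAT occurred at 5 of 13 thresholded splicing promoters, or 38.5% (Wilson interval 17.7 to 64.5), and at 13.1% of all thresholded regions at protein-coding starts. The 5 were LSm1, SF2, Sf3b1, U2af38 and snf. At the best pooled-list regions it was 9 of 38, or 23.7% (13.0 to 39.2), against 9.43% of all 10303 pooled regions at protein-coding starts. The added genes were LSm7, Prp40, Sf3a2 and Sf3b2. The full TATCGATA, which contains the core and was searched after the data were seen, was present at SF2, snf and Sf3b2, or 7.89% of the 38, against 3.32%. Here and below, the splicing genes count by their best region only and the background by every region. The shares are thus not counted alike. The counts are small and moved with the summit used. Around the summits of the overlapping replicate 2 regions the core was found at 15.4% of the 13, and around those of replicate 3 at 46.2%.

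The 1 forkhead core searched, GTAAACA, was rare at splicing promoters, as at other promoters. Other forms of forkhead site were not searched. GTAAACA occurred at 1 of 13 thresholded members, or 7.69%, and at 4.68% of all thresholded regions at protein-coding starts. The gene was Sf3a1. In the pooled list Sf3b3 and tra2 also had it, giving 3 of 38, or 7.89%, against 3.81%. The E-box CACGTG, read by the clock proteins Clk and cyc, was found at Sf3b3 alone. This was 2.63% of the 38, against 1.16% of all pooled regions at protein-coding starts. GAGAG, the site of GAGA factor, occurred at B52 and Prp3, or 5.26% of the 38, against 13.8% of all pooled regions at protein-coding starts. GGTCACAC, a core of Ohler motif 1, was found at Prp18 and Prp3, or 5.26%, against 2.70%. A match gives the letters only, and none of these shares was tested.

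Splicing factors outside the rule were examined in 4 lists, of late spliceosome factors, the exon junction complex, heterogeneous nuclear ribonucleoproteins (hnRNPs) and snRNP assembly factors with the kinases of SR proteins. Of their 45 genes, 20 had a thresholded promoter region, or 44.4%, and 40 had a pooled-list region, or 88.9%. The background shares were the 22.9% and 57.6% given above. The late factors had 9 of 20, led by Phf5a, a protein of the Sf3b complex, with a signal of 388.6 and a rank of 289 in the pooled list. BCAS2, of the Prp19 complex, followed at 388.4, from a summit 398 bp away, and Slu7, of the second catalytic step, at 312.0. In the pooled list all 3 exceeded every Sf3a, Sf3b and Prp gene of the symbol rule.

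SRPK, a kinase that phosphorylates SR proteins, had the strongest region of all genes in the symbol rule and the 4 lists. It had a signal of 580.2 with its summit 23 bp upstream of a start, and it ranked 98 in the pooled list, 114 in replicate 2 and 82 in replicate 3. Doa, another kinase of SR proteins, had a signal of 343.6 and ranks of 405, 321 and 509. Srpk79D ranked 17022 in the pooled list and had none above the threshold. Smn, which assembles Sm rings onto small nuclear RNAs, had a signal of 272.7 and ranked 662, 567 and 1218. These were the 3 of 9 genes in the assembly and kinase list with a thresholded region.

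Among the hnRNP genes 6 of 10 had a thresholded region, glo with a signal of 262.0, sqd with 158.9, Hrb98DE with 157.8, and then Syp, ps and Hrb87F. The exon junction complex had 2 of 6, Acn with 290.2 and tsu, the fly Y14 gene, with 143.9. Next was btz, with 80.0, below the threshold. The core partner of tsu, mago, had no pooled-list region and ranked 10018 in replicate 3 alone. Of the divergent genes in the 4 lists, 12 of 26 had a thresholded region, or 46.2%, against 47.5% of all divergent protein-coding genes. Of the others it was 8 of 19, or 42.1%, against 13.6%.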

How the data were processed

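Chromatin immunoprecipitation with sequencing was made from whole adult flies with chromatin sheared to 200 to 800 bp, per the labels. Per the deposited file descriptions, the authors called each replicate list from its own alignment with 1 control alignment common to both, the pooled list from the 2 combined, and the thresholded list from all 3 by irreproducible discovery rate. The signal column is the authors' own region height. Its scale is not stated, and it served to rank regions within a list. The sources used here name no peak caller or aligner. Lists on dm3 were not used here.

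Ensembl release 115 start sites and the RefSeq Release 6 sequence (dm6) were used, with coordinates from 1 (Python 3.11.15, numpy 2.4.6, scipy 1.17.1, pysam 0.24.0). Top-ranked means the 3707 regions of highest signal in a replicate. Assignment was tested on simulated summits. With 1 group no test was made, and Wilson intervals cover counting error over genes or regions only. Of 50 names in the 4 lists, 5 matched through an older symbol, 3 matched none and 2 repeated a gene. Members and lists were chosen with earlier results of these data known. The text names all members, the neighbours within 500 bp of thresholded members other than SF1, and the 3 strongest genes of each list. Others were chosen after their values were seen.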

Additional observations from a re-analysis of the deposited data

How the results depend on the processing

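Of the 13 splicing genes above the threshold, 9 had a summit within 250 bp, 12 had one at the canonical start, and 9 had a region that covered a start. Counting each summit for the nearest gene only left 6, and the thresholded regions ranked at or above the median signal of 161.2 left 8. Every pooled region gave 38, and promoters that are not divergent held 3. Over all protein-coding genes those regions gave 1908 genes, every pooled region 8030, divergent promoters 1814 and other promoters 1381. For the 45 other splicing factors the same settings gave 10, 40, 12 and 8. Counting each summit for the nearest gene only left 14 of the 45, or 31.1%, beside 17.0% of all protein-coding genes. Each replicate alone gave 14 splicing genes, of which the 13 were all present with replicate 2 and 10 with replicate 3.

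The median best rank over splicing genes was 5418 within 250 bp and between 4837 and 6000 in a replicate alone. Over all protein-coding genes it was 5409 in replicate 2 and 5225 in replicate 3, so the splicing genes ranked better in replicate 2 and worse in replicate 3. The median distance to the nearest thresholded summit was 86 bp within 250 bp and between 108 and 142 bp in a replicate alone. Within 25 bp of the summit GTAAACA was at 0% of the 13. The share with ATCGAT ranged from 15.4% to 46.2% between replicates. The cause of these shifts was not tested. No paired analysis was possible because the series has 1 group. Depth limits which weak regions the lists could hold, and it is unknown.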

Other observations

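The RNA components of the spliceosome are transcribed from small, repeated snRNA genes. Of 29 annotated genes with a symbol beginning snRNA:U, which include the U7 gene of histone mRNA processing, 5 had a thresholded region within 500 bp of a start, or 17.2%, and 17 a pooled-list region, or 58.6%. The shares of protein-coding genes were 22.9% and 57.6%, so the snRNA genes lay below the first and near the second. The strongest, with a signal of 260.1 and a pooled rank of 745, was 1 region counted for both snRNA:U6:96Ab and snRNA:U6:96Ac. It ranked 651 in replicate 2 and 861 in replicate 3. A U1 gene, snRNA:U1:95Ca, had a signal of 213.6 with its summit 42 bp downstream of the start, whereas its near copies snRNA:U1:95Cb and snRNA:U1:95Cc had none. The U4 gene snRNA:U4:39B had 140.8 and the U2 gene snRNA:U2:34ABb 133.8. Copies of these genes are near-identical, and how reads common to several were placed was not checked.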
